A study of Homo sapiens with 6 samples.

Results

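The output end of the Hippo pathway, 10 genes in all, was followed in MDA-MB-231 cells after 8 h with the histone deacetylase inhibitor SAHA. The genes are the coactivators YAP1 and WWTR1 (TAZ), the DNA-binding partners TEAD1, TEAD2, TEAD3 and TEAD4, and the target genes CCN1 (CYR61), CCN2 (CTGF), ANKRD1 and AMOTL2. The genes were chosen by name, for their role in the pathway, with earlier results of these data known. Every probe set whose annotated symbol is exactly one of these names was taken. That gave 29 probe sets of the 49293 on the array that are not controls, for 10 of the 18132 genes that a probe set names alone.

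MDA-MB-231 is an established line of triple-negative, mesenchymal human breast cancer cells, and is known to carry an inactivating mutation of NF2, a gene that acts upstream of the Hippo kinases. Cells of that line received 5 µM SAHA (vorinostat), which inhibits the zinc-dependent histone deacetylases, or the solvent DMSO, each for 8 h, with 3 arrays per group. RNA was measured on Affymetrix 3' expression arrays, so the data describe 1 line at 1 dose and 1 time. Nothing in the labels ties the replicates to separate cultures, and the spread behind each p-value may therefore be technical.

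In the Hippo pathway the kinases STK3 and STK4 activate LATS1 and LATS2, which phosphorylate YAP and TAZ and so hold them in the cytoplasm or send them to degradation. Unphosphorylated YAP and TAZ enter the nucleus, where they bind DNA through TEAD factors and raise the transcription of genes of growth, adhesion and matrix. Much of this control acts on the proteins, which an mRNA array does not measure, and TAZ and YAP are known for a strong part in invasive breast cancer cells.

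The 10 genes split. With SAHA the mRNA of YAP1 fell by 1.37 to 1.66 on the log2 scale over its 8 probe sets, while that of its paralog WWTR1 rose slightly. TEAD4 fell, TEAD1 and TEAD3 rose in their brightest probe sets, and TEAD2 did not pass the test. CCN1, CCN2 and ANKRD1, the best known targets of YAP and TAZ, rose, and AMOTL2 fell in its brightest probe set.

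Of the 29 probe sets, 10 were higher and 10 lower in limma's test (adjusted p under 0.05 over all 49293 probe sets), and 9 did not pass. Over the whole array 22.2% of probe sets were higher and 24.1% lower, 46.4% in all. The share called depends on the level of the signal. Of the 17 member probe sets with a mean log2 value of 8 or more, 15 were called, against 72.8% of all such probe sets, and of the 12 under 8, 5 were called, against 35.6%. The number of calls is thus near the background of this array and is no result about the members. The SAHA and DMSO arrays did not overlap in 21 of the 29 probe sets, 8 of them of YAP1, against 54.4% of all probe sets. That share was not matched on level, so this count too is no result about the members. What follows is about their sizes and directions. The median difference of the 29 was 0.05 on the log2 scale, beside -0.02 over all probe sets. YAP1 alone holds 8 of the 29 probe sets and 8 of the 10 lower ones. By the brightest probe set of each of the 10 genes, the median was 0.40, beside -0.01 over all genes. Values below are log2 expression values, and a difference is the SAHA mean minus the DMSO mean, ± limma's standard error (n = 3 arrays per group). A level of one probe set is not comparable with that of another.

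**Figure D1:**
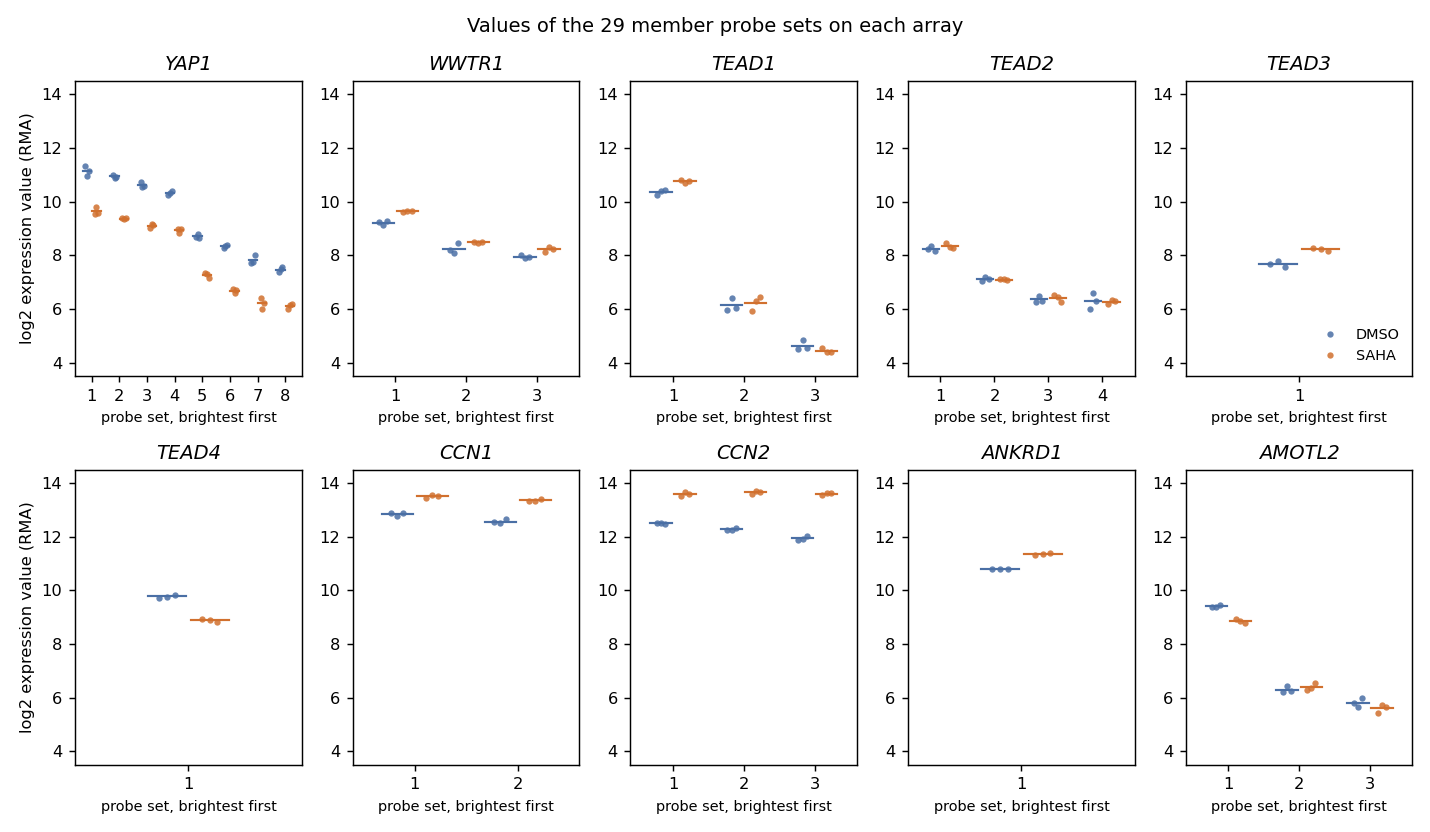
Log2 expression values of the 29 member probe sets, 1 panel per gene, with probe sets numbered from the brightest on the horizontal axis. Points are arrays (3 DMSO, 3 SAHA) and bars are group means. All 8 YAP1 probe sets lay lower on the SAHA arrays, while the probe sets of CCN1, CCN2 and ANKRD1 lay higher.

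The arrays were alike within groups (Pearson's r across probe sets 0.997 to 0.998) and less so between groups (0.969 to 0.970). The difference between the 3' and 5' control probe sets of ACTB, a measure of RNA integrity and amplification, was 0.89 ± 0.16 on DMSO and 0.61 ± 0.06 on SAHA arrays (SD, n = 3). That of GAPDH went the other way and was far smaller, at 0.029 ± 0.019 on DMSO and 0.063 ± 0.020 on SAHA arrays. Neither overlapped between the groups. For each, an exact two-sided permutation of the arrays gave p = 0.1, which is the lowest this design can reach, and 0.133 after adjustment over 4 array measures. Both differences moved with the groups, so they go with every result given here, and their part in them was not tested. The 6 markers of mesenchymal MDA-MB-231 cells had mean log2 values between 8.33 and 13.99, with VIM at 13.96 ± 0.01 in DMSO, and 5 of the 6 fell with SAHA and 0 rose, whose part in the results was not tested either. Of 6 luminal and epithelial markers, listed as ones that such cells lack, ESR1 (5.98 ± 0.06), PGR (3.29 ± 0.11) and CDH1 (4.20 ± 0.15) had the lowest levels in DMSO and did not pass the test. GATA3 (6.67 ± 0.08), FOXA1 (7.55 ± 0.07) and EPCAM (8.67 ± 0.07) read above these, so not all of the list read low. Levels of different probe sets are not strictly comparable, so this ranking of GATA3, FOXA1 and EPCAM is rough. With SAHA these 3 fell, by 1.23, 0.78 and 0.93 on the log2 scale, and the list's summed level, as a log2 value, was 9.58 to 9.65 on DMSO and 8.83 to 8.88 on SAHA arrays, whose part in the results was not tested. Leukocyte and endothelial markers (6 genes) had mean log2 values of 3.29 to 6.49. Their summed level, as a log2 value, was 7.88 to 8.11 on DMSO and 7.88 to 8.04 on SAHA arrays, and CD3E alone of them passed the test, at -0.25.

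YAP1 encodes the coactivator YAP. Its brightest probe set read 11.33, 10.95 and 11.15 on the DMSO arrays and 9.53, 9.79 and 9.59 on the SAHA arrays. All SAHA values lay more than a log2 unit below all DMSO values, and the difference was -1.50 ± 0.11 (2.83-fold lower, limma's adjusted p = 1.52e-05). The other 7 probe sets agreed in direction and closely in size. The 8 differences ran from -1.66 to -1.37, that is from 2.58-fold to 3.17-fold lower, although the probe sets' DMSO means ranged from 7.47 to 11.14. The groups did not overlap in any of the 8, and the highest adjusted p was 1.57e-05. Probe sets of 1 gene can share probes and read the same RNA, so they are not independent replicates, and 3 of the 8 have names that mark probes shared by similar transcripts. The brightest of these read 10.99, 10.90 and 10.93 on the DMSO and 9.40, 9.34 and 9.38 on the SAHA arrays, and its difference of -1.57 ± 0.06 was within the range of the 5 unshared ones. That range was -1.62 to -1.37, and the dimmest of the 3 shared probe sets, at -1.66 ± 0.07, lay just outside it. With the brightest probe set of each gene, YAP1 had the largest difference of the 10 genes in either direction. In RNA of whole cultures, fewer cells with a transcript and less of it per cell cannot be told apart.

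WWTR1, which encodes TAZ, went the other way by a much smaller amount. Its brightest probe set was at 9.24, 9.13 and 9.29 on the DMSO arrays and at 9.60, 9.66 and 9.65 on the SAHA arrays, without overlap, and it rose by 0.42 ± 0.07 (1.33-fold, limma's adjusted p = 0.00100). A dimmer probe set, at 8.02, 7.90 and 7.92 against 8.14, 8.31 and 8.23, rose by 0.28 ± 0.07 (adjusted p = 0.0105 in limma). The remaining probe set, with 8.20, 8.09 and 8.46 on the DMSO and 8.49, 8.46 and 8.49 on the SAHA arrays, gave 0.23 ± 0.10 and did not pass (adjusted p = 0.0866 in limma). DMSO replicate 3 lay at the level of SAHA replicate 2 to 2 decimals there, and without that DMSO array the difference was 0.33, with an adjusted p of 0.00746 in limma. Without DMSO replicate 2, the lowest array there, it was 0.15 (adjusted p = 0.243 in limma). Of 14 settings other than the one reported, 9 left this probe set uncalled. On each array the log2 value of YAP1 minus that of WWTR1, in their brightest probe sets, fell by 1.92 from DMSO to SAHA. It was 2.09, 1.82 and 1.86 on the DMSO arrays and -0.07, 0.14 and -0.06 on the SAHA arrays (two-sided exact permutation p = 0.1, the smallest possible, and 0.1 after adjustment over 4 such pairs). Each of the 4 pairs sets a gene that fell against a gene that rose, without overlap in their brightest probe sets. The permutation p was therefore fixed in advance and adds no support. A scaling common to an array cancels in the within-array difference, so the mRNAs of the coactivators changed unequally whatever the centring.

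**Figure D2:**
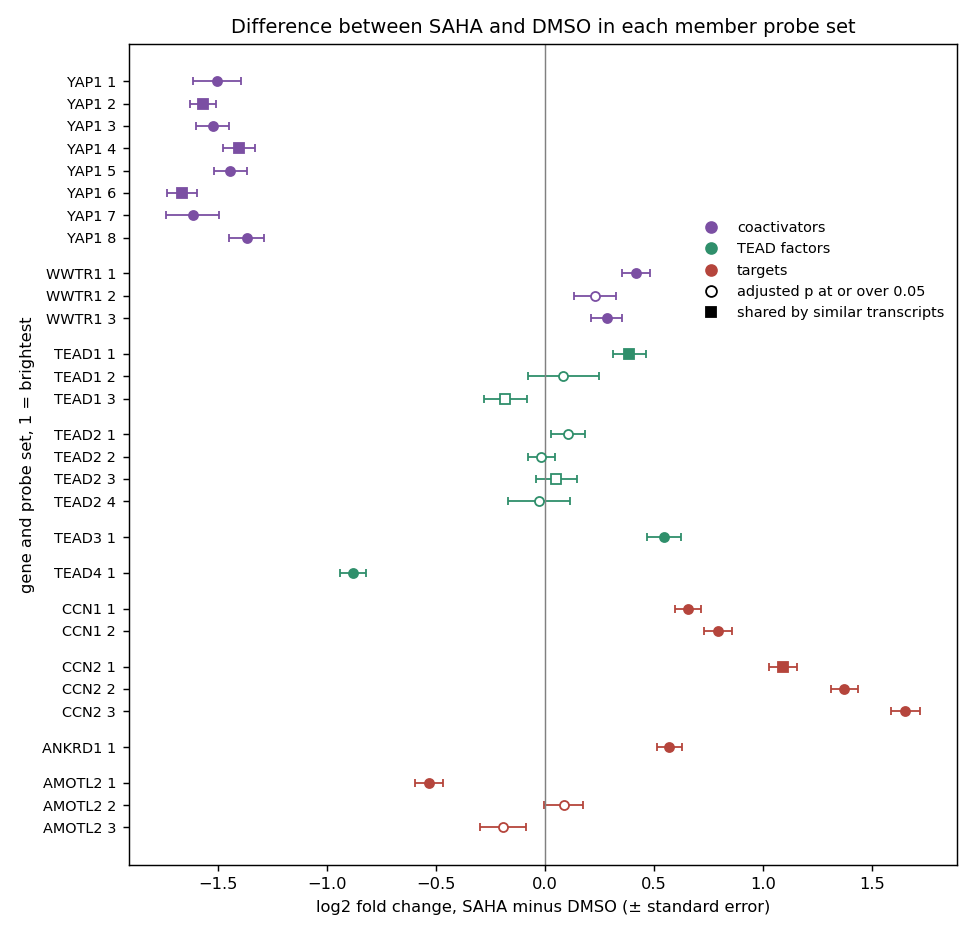
Log2 fold change of SAHA over DMSO for each member probe set with its standard error from limma, grouped by gene and coloured by role. Filled marks have an adjusted p under 0.05 and squares are probe sets shared by similar transcripts. The differences ran from -1.66 in a YAP1 probe set to 1.65 in a CCN2 probe set, and the 4 TEAD2 probe sets lay between -0.03 and 0.10.

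The TEAD factors, which carry the DNA-binding domain, did not move as a family. TEAD4 has 1 probe set, at 9.73, 9.77 and 9.82 on the DMSO arrays and 8.94, 8.90 and 8.84 on the SAHA arrays. The groups lay well apart, and TEAD4 fell by 0.88 ± 0.06 on the log2 scale (1.84-fold, limma's adjusted p = 1.08e-05). TEAD3, also with 1 probe set, was at 7.69, 7.80 and 7.55 against 8.26, 8.25 and 8.16. Its groups did not overlap either, and it rose by 0.55 ± 0.08 (1.46-fold, adjusted p = 0.000623 in limma).

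TEAD1 depends on the probe set. The brightest, a set shared by similar transcripts, read 10.25, 10.41 and 10.45 on the DMSO and 10.81, 10.68 and 10.78 on the SAHA arrays, a rise of 0.39 ± 0.08 (limma's adjusted p = 0.00332). The other probe sets of TEAD1 were far dimmer, overlapped between groups, and gave 0.08 ± 0.16 and -0.18 ± 0.10 (adjusted p = 0.726 and 0.185 in limma). With the mean of its probe sets TEAD1 was at 0.10 (adjusted p = 0.403 in limma), so its rise rests on 1 probe set. TEAD2 overlapped between groups in each of its 4 probe sets. Its brightest read 8.25, 8.35 and 8.16 on the DMSO and 8.46, 8.32 and 8.29 on the SAHA arrays, and the 4 differences were -0.03 to 0.10, with adjusted p-values of 0.329 or more in limma. Within arrays, TEAD4 fell by 1.27 relative to TEAD1 and fell by 1.43 relative to TEAD3 on the log2 scale (exact permutation p = 0.1 for each, the smallest possible, and 0.1 after adjustment over the 4 pairs). The opposite directions of the paired genes fixed this p in advance. Over the 9 TEAD probe sets, 2 were higher, 1 lower and 6 did not pass.

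The target genes are where TEAD binding is best known. The upstream sequences shown, of 3 of them and of YAP1 itself, are those of the members that hold a match. TEAD factors recognise the letters GGAATG, or CATTCC on the opposite strand, and both were searched in the 250 bases before each RefSeq transcription start (GRCh38.p14). Of 35116 such windows of all genes, 11.9% hold at least 1 match, 0.94% at least 2 and 0.0826% at least 3. RefSeq windows were matched for 7 of the 10 members, 10 windows in all, of which 4 hold a match. No RefSeq window was matched for CCN1, TEAD1 and TEAD4. The windows of WWTR1, TEAD2 and TEAD3, and 1 AMOTL2 window, hold neither motif. Capitals mark the matches, and each sequence is written 5′ to 3′ on the gene's own strand. The CCN2 window is chr6:131951373-131951622 on the minus strand, with 3 matches, which begin 169, 104 and 95 bases before the start. That of ANKRD1 is chr10:90921088-90921337 on the minus strand, with 2 matches, 220 and 128 bases before it. That of YAP1 is chr11:102110197-102110446 on the plus strand, with 1 match 162 bases before it. AMOTL2 has windows at 2 starts, of which the one at chr3:134374448-134374697 on the minus strand holds 1 match, 69 bases before the start, and 30 bases around it (chr3:134374499-134374528) are given.
CCN2: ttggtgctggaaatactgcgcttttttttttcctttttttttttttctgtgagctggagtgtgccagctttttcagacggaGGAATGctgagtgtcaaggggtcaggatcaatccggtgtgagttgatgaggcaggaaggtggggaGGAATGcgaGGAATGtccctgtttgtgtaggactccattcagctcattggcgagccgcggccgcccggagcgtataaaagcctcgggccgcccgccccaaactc
ANKRD1: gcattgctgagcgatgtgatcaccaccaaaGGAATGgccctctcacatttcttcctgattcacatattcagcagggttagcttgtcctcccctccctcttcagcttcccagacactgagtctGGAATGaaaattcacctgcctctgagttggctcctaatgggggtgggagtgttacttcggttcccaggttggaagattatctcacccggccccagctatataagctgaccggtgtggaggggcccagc
YAP1: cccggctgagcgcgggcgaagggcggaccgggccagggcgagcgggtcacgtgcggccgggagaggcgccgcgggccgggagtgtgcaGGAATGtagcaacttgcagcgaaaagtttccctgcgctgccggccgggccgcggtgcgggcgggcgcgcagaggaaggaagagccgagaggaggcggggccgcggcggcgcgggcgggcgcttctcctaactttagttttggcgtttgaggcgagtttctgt
AMOTL2: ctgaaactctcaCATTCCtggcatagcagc
A match is a description of letters and shows no binding in these cells. Among 14 windows of 13 other target genes listed below, 5 hold at least 1 match and 1 holds at least 2.

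**Figure D3:**
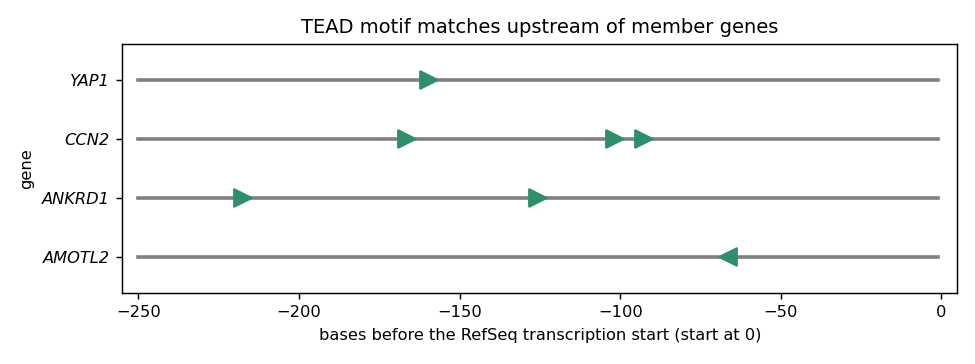
Matches to GGAATG (pointing right) or CATTCC (pointing left) in the 250 bases before the transcription start, on a horizontal axis in bases from that start, for the member genes that have a match. Grey lines are the windows searched; CCN2 has 3 matches, ANKRD1 has 2, and YAP1 and AMOTL2 have 1 each.

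CCN2, a matricellular protein that is the standard readout of YAP and TAZ activity, had the largest rise of the members. Its brightest probe set was at 12.50, 12.53 and 12.48 on the DMSO arrays and 13.51, 13.67 and 13.60 on the SAHA arrays, a rise of 1.09 ± 0.07 (2.13-fold, limma's adjusted p = 5.24e-06). The second read 12.27, 12.27 and 12.32 against 13.60, 13.71 and 13.67 and rose by 1.37 ± 0.06. The third read 11.88, 11.93 and 12.04 against 13.57, 13.62 and 13.62 and rose by 1.65 ± 0.07 (3.14-fold, limma's adjusted p = 9.03e-07). The groups were far apart in all 3 probe sets. Their means differed in DMSO (11.95 to 12.50) and came together with SAHA (13.59 to 13.66), where the highest value of the whole table was 14.33. The size of the CCN2 rise therefore depends on the probe set. The brightest of the 3 is a set shared by similar transcripts.

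CCN1, a relative of CCN2 with roles in adhesion and angiogenesis, rose in both of its probe sets. The brighter was at 12.88, 12.79 and 12.88 on the DMSO and 13.46, 13.54 and 13.53 on the SAHA arrays, a rise of 0.66 ± 0.06 (1.58-fold, limma's adjusted p = 5.19e-05). The other was at 12.54, 12.50 and 12.66 against 13.35, 13.33 and 13.39, a rise of 0.79 ± 0.07 (1.73-fold). ANKRD1, an ankyrin repeat protein of heart muscle that is a common YAP target in other cells, read 10.80, 10.79 and 10.80 on the DMSO and 11.32, 11.36 and 11.41 on the SAHA arrays in its 1 probe set. It rose by 0.57 ± 0.06 (1.48-fold, limma's adjusted p = 8.16e-05). In these 3 genes no SAHA array overlapped with a DMSO array in any of 6 probe sets.

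AMOTL2, an angiomotin that binds YAP and TAZ at junctions and is also induced by them, moved against the other targets. Its brightest probe set was at 9.39, 9.38 and 9.44 on the DMSO and 8.95, 8.86 and 8.80 on the SAHA arrays, without overlap, and fell by 0.53 ± 0.06 on the log2 scale (1.44-fold, limma's adjusted p = 0.000224). Its dimmer probe sets overlapped between the groups and gave 0.09 ± 0.09 and -0.19 ± 0.11 (adjusted p = 0.488 and 0.187 in limma), so this fall too rests on 1 probe set. CCN2 rose by 1.62 relative to AMOTL2 within arrays, from 3.11, 3.16 and 3.04 on the DMSO arrays to 4.56, 4.81 and 4.80 on the SAHA arrays (exact permutation p = 0.1, the smallest possible, and 0.1 after adjustment over the 4 pairs). Here too the opposite directions fixed the p in advance.

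Other genes of the pathway were taken from lists and read at gene level, with the brightest probe set of each gene and limma's adjusted p over all 18132 genes. In that test 48.3% of genes were called, 24.6% higher and 23.8% lower, with a median difference of -0.01, and 9 of the 10 members were called, 6 higher and 3 lower. Most members' brightest probe sets had a mean log2 value of 8 or more, where 72.8% of all probe sets were called. The count of members called is thus no result about them. The lists below were not matched on level either, so the number called in each is no result about that list. The split of all genes depends on the scaling. Centring on ribosomal protein genes shifted the median of all genes to 0.10, with 5948 genes higher and 3419 lower, and centring on poly-A spike-ins shifted it to 0.17, with 6023 higher and 2412 lower, beside 4457 higher and 4307 lower as deposited. The direction of each called member held under both.

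**Figure D4:**
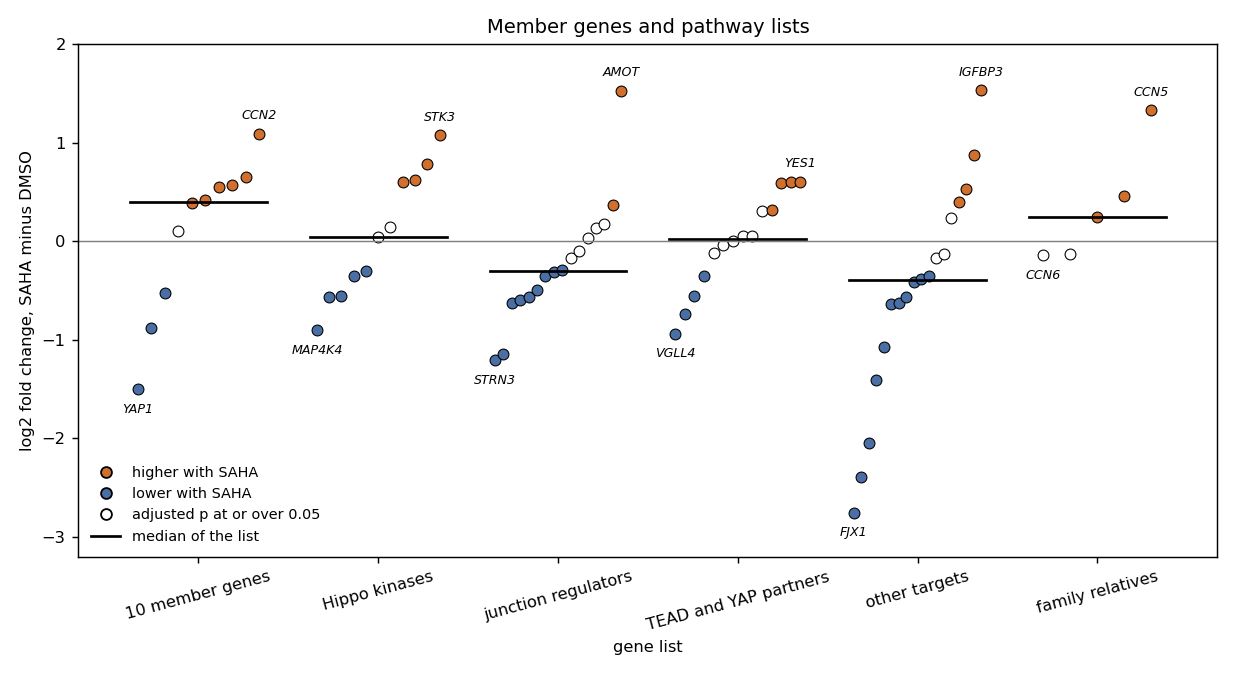
Log2 fold change of SAHA over DMSO at gene level for the 10 members and 5 lists of pathway genes, each gene a point in order of its value. Orange and blue points have an adjusted p under 0.05, open points do not, and bars are list medians. The other targets reach from -2.76 (FJX1) to 1.53 (IGFBP3).

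The kinases of the cascade and their scaffolds moved both ways. Of 11 measured, 4 were higher and 5 lower, with a median of 0.04. SAV1, the scaffold of the upstream kinases, rose by 0.78 ± 0.06 (1.72-fold), and STK3 (MST2), which phosphorylates LATS, by 1.08 ± 0.09 (2.11-fold), although other probe sets of STK3 ranged from -0.02 to 0.93. TAOK3, a kinase that activates STK3 and STK4, rose by 0.62 ± 0.06. MAP4K4, which acts on LATS in parallel to them, fell by 0.90 ± 0.07 (1.87-fold). Named after their values were seen, for their place at the core, STK4 (MST1) rose by 0.60 ± 0.07, LATS2 fell by 0.36 ± 0.06 and LATS1, at a low level of 4.24 ± 0.17 in DMSO, fell by 0.55 ± 0.09. Centred on poly-A spike-ins, the balance turned to 5 higher and 3 lower, and centred on ribosomal protein genes it was 5 and 5.

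Regulators at junctions and the membrane were mostly lower. Of 16 measured, 2 were higher and 9 lower, with a median of -0.30, beside 24.6% higher and 23.8% lower among all genes. AJUBA, a LIM protein that binds LATS, fell by 1.15 ± 0.05 (2.21-fold) and STRN3, of the phosphatase complex that acts on STK3 and STK4, by 1.21 ± 0.07 (2.31-fold). NF2, the activator named above, fell by 0.59 ± 0.06 in its brightest probe set, while its other 6 probe sets gave -0.36 to 0.19. AMOT, the founding angiomotin and a relative of AMOTL2, rose by 1.53 ± 0.08 (2.88-fold), from 5.38 ± 0.12 to 6.91 ± 0.07 (SD, n = 3), and its other probe sets gave 0.11 to 1.24. DCHS1, a large cadherin, rose by 0.37 ± 0.10 (limma's adjusted p = 0.0159), and did not pass without DMSO replicate 1 (adjusted p = 0.0521 in limma) or without DMSO replicate 3 (0.0515), each of which left 1 gene of the list higher. Centring on ribosomal protein genes or on poly-A spike-ins gave 4 higher, with 8 and 6 lower.

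Among TEAD cofactors and proteins that retain, modify or degrade YAP and TAZ, 4 of 14 measured were higher and 4 lower, with a median of 0.03. VGLL4, which competes with YAP for TEAD, fell by 0.94 ± 0.10 (1.92-fold) and by less in its other probe sets, at -0.55 to -0.50. CSNK1D, a kinase that marks phosphorylated YAP for degradation, fell by 0.55 ± 0.06, while BTRC, the ubiquitin ligase subunit that then binds it, rose by 0.60 ± 0.06. YWHAH, a 14-3-3 protein of the family that holds phosphorylated YAP in the cytoplasm, fell by 0.73 ± 0.06 (1.66-fold). Centring on ribosomal protein genes gave 6 higher and 4 lower, and on poly-A spike-ins 5 and 3. CSNK1E of this list was not analysed here.

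The other genes of a published signature of YAP and TAZ targets, read here beside the member targets, were mostly lower. Of 18 measured, 11 were lower and 4 higher, with a median of -0.40, beside 23.8% lower and 24.6% higher among all genes. FJX1, a secreted glycoprotein, fell by 2.76 ± 0.06 (6.76-fold, limma's adjusted p = 1.44e-07), from 10.90 ± 0.06 to 8.14 ± 0.07 (SD, n = 3). The transcription factor FOXF2 fell by 2.39 ± 0.09 (5.25-fold) and DOCK5, a guanine nucleotide exchange factor, by 1.41 ± 0.06 (2.66-fold). Like CCN1 and CCN2, IGFBP3, which binds insulin-like growth factors, rose by 1.53 ± 0.06 (2.89-fold) and F3, the tissue factor of coagulation, by 0.88 ± 0.06 (1.84-fold). Centred on poly-A spike-ins, 8 of the 18 were lower and 5 higher. LATS2 and PTPN14 stand in this list and in one of those above, since the pathway's inhibitors are themselves targets.

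Of the relatives of CCN1, CCN2 and ANKRD1, 3 of 5 measured were higher and 0 lower in limma's test, with a median of 0.25, and without SAHA replicate 1 there was 1 lower. CCN5, a growth-inhibiting member of the CCN family, rose by 1.33 ± 0.09 (2.51-fold), from 4.50 ± 0.14 to 5.83 ± 0.11, and CCN3 by 0.46 ± 0.08 (0.87 in its other probe set). ANKRD2, a muscle relative of ANKRD1, rose by 0.25 ± 0.07 (limma's adjusted p = 0.0204), a call lost without DMSO replicate 3 (adjusted p = 0.0680 in limma), SAHA replicate 2 (0.0729) or SAHA replicate 3 (0.0591), with trend and robust moderation (0.0717) and at a threshold of 0.01. The level of ANKRD2 was low, at 4.31 ± 0.08 on DMSO and 4.56 ± 0.09 on SAHA arrays (SD, n = 3). CCN4 did not pass, at -0.13 ± 0.07. With a minimum mean log2 value of 5, ANKRD2 dropped out and 2 relatives were left, of which 2 were higher. ANKRD23 was not analysed here.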

How the data were processed

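Per the labels' protocols, total RNA was amplified with a 3' kit, labelled with biotin and read on 6 arrays. The table deposited by the authors gives a log2 value for each probe set, and the submitters' processing notes name RMA. For software, version and genome build the entry is: not given in the sources used here. RMA makes the arrays' distributions of probe intensities equal, so a shift of most transcripts cannot be read from these values. Fold changes near the floor or the top of the scale are understated. The medians of the probe set values still differed, at 6.18 to 6.20 on DMSO and 6.23 on SAHA arrays, and their part in the results was not tested. The precision is limited by the 3 arrays per group.

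The table held 49395 rows, of which 102 were array controls. Names came from the platform annotation, with Entrez identifiers checked in a RefSeq gene table (GRCh38.p14). All symbols were current, except that 27 probe sets could not be looked up. Of the probe sets, 44988 named 1 gene, 1832 several and 2473 none. The test was limma (version 3.58.1, R 4.3.3; lmFit, eBayes), SAHA minus DMSO over 6 arrays, two-sided, without covariates or filter, with Benjamini-Hochberg adjustment at 0.05. The test ran over all probe sets, for the members, and over all genes by their brightest probe set, for the lists. The procedure was tested on simulated data. Members, lists and tests were chosen with earlier results of these data known. All members and their probe sets are named, and in each list the 4 genes with the smallest p and up to 2 called ones that moved against most. Alternatives were a replicate block, centring on 68 ribosomal protein genes or 12 poly-A spike-in probe sets, quantile normalization once more, trend and robust moderation, a minimum mean log2 value of 5, a threshold of 0.01, other choices of probe sets, and leaving out each array. Figures were drawn with matplotlib 3.10.9. Sequences are from RefSeq.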

Additional observations from a re-analysis of the deposited data

How the results depend on the processing

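Over 16 alternatives, 154 of 160 values of the 10 member genes kept their side of the threshold, and their direction if called. A change of sign between values that did not pass was not counted, such as that of TEAD2, which reached -0.02. Genes with 1 probe set kept that probe set where another was asked for. YAP1 stayed between -1.60 and -1.32, TEAD4 between -0.90 and -0.70, CCN2 between 1.05 and 1.37, CCN1 between 0.63 and 0.84, ANKRD1 between 0.55 and 0.75 and TEAD3 between 0.48 and 0.73. AMOTL2, which fell in its brightest probe set, gave 0.087 with the second brightest (adjusted p = 0.504 in limma), and the cause was not tested. TEAD1 did not pass without _x_at and _s_at probe sets (0.08), with the second brightest (0.08) or the mean of its probe sets (0.10), nor WWTR1 with its second brightest (0.23). TEAD2 passed centred on ribosomal protein genes (0.21, adjusted p = 0.0401 in limma). Of 398 values of member probe sets 391 were unchanged in this sense, 6 came to pass and 1 no longer did.

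Without _x_at and _s_at probe sets, fewer probe sets were tested, and 15149 of 34921 were called, against 22850 of 49293. In that setting 2 of 12 measured partners of TEAD and YAP were lower and 1 of 14 measured junction regulators was higher. Centred on poly-A spike-ins, 2412 genes and 3 Hippo kinases were lower and 4 junction regulators higher, as many as centred on ribosomal protein genes or with the second brightest probe set, and 1 at a threshold of 0.01. With each array left out in turn, 1 to 2 junction regulators were higher and 0 to 1 relatives lower. Beyond the constructions named, the cause was not tested.

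The replicate numbers do not pair the samples: deviations of same-numbered arrays correlated at -0.10, -0.08 and -0.03, and 0 of 6 samples correlated best with their own number in the other group. With the replicate number as a block, 8291 genes were called, against 8764, and 10 member probe sets were higher and 10 lower, as without it.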
